A study of Mus musculus with 9 samples.

Results

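Collagen chains and other proteins of the extracellular matrix were followed in mouse T cell lymphoma and in control T cells, as 57 of the 46078 genes of the count table. A gene was taken if its symbol begins as a numbered collagen chain (Col1a1, Col4a2 and so on), or if it is Dcn, Lum, Bgn, Fn1, Sparc, Fbn1, Postn, Mgp, Lama2, Lamb1, Lamc1 or Nid1. The genes were chosen by family, as a possible sign of stromal cells, at a time when the difference between these lymphomas and controls had already been seen. Their differences between the groups are therefore given as a description, without p-values, and "called" below only says that a gene passed an adjusted p under 0.05 in the fit over all genes. The pattern also takes in Col4a3bp, which encodes a ceramide transfer protein and no collagen, so sums and counts are given with and without it.

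The lymphoma group holds 6 libraries of T cell lymphoma cells from the thymus, induced by the transcription factor MYCN and numbered 34, 53, 56, 70, 72 and 86. The control group holds 3 libraries of CD4+ T cells from spleen, numbered 1, 2 and 3. All are from C57BL/6J mice, and RNA was read at transcript 3′ ends. The promoter and cell type that drive MYCN, the age of the mice, the purity of the cells and whether each library came from a separate mouse are not given in the sources used here, so p-values measure the spread between these samples.

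Collagens are helical proteins assembled from alpha chains. Fibrillar collagens form the cables of connective tissue, collagen IV and laminins form the sheets of basement membranes, and proteoglycans such as decorin bind fibrils and growth factors. In lymphoid organs most of this matrix is made by fibroblasts, reticular cells, vessel wall cells and epithelium, and T cells meet it through integrins and other receptors.

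Reads counted in genes were 11170704 to 15769679 in the lymphomas and 8099960 to 10808828 in CD4. Values below are CPM, read counts scaled to a common library size after TMM scaling and not divided by gene length, so levels of different genes are not compared. A count of 0 allows at most 3 counts, which is 0.184 to 0.274 CPM in the lymphomas and 0.275 to 0.360 CPM in CD4, and this covers counting error only. A gene at or near 0 in this table may still be expressed: Ppib, a folding enzyme found in all cells, had 0 to 8 counts per library. Group, organ and sex-linked transcripts coincide: the Y-linked gene Ddx3y was higher in lymphoma (log2 fold change 8.08, edgeR adjusted p 6.54e-08) and Xist lower (-6.10, adjusted p 6.54e-08). Effects of tumour, organ and sex cannot be told apart. In whole libraries, fewer cells of a type and less RNA per cell cannot be told apart either.

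The matrix genes were a small part of every library and did not move as a block. They held 0.016% to 0.029% of gene counts, and 43 of the 57 had at least 10 counts over the 9 libraries. The expression filter passed 30 of them. In the fit over 15401 genes, 5 of the 30 were called higher in lymphoma (Col11a1, Col4a2, Col6a3, Lamb1 and Dcn), where 24.7% of all tested genes were. Another 6 were called lower (Col11a2, Col9a3, Col14a1, Col20a1, Lamc1 and Col4a3bp), where 21.9% of all tested genes were, and 19 were not called. Because the filter and the choice of genes both depend on this contrast, nothing is read from these shares. The median log2 fold change of the 30 was -0.25, against 0.04 over all tested genes. Every lymphoma lay above every CD4 library for 4 members, against 22.6% of tested genes, and below for 5 members, against 22.3%.

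**Figure D1:**
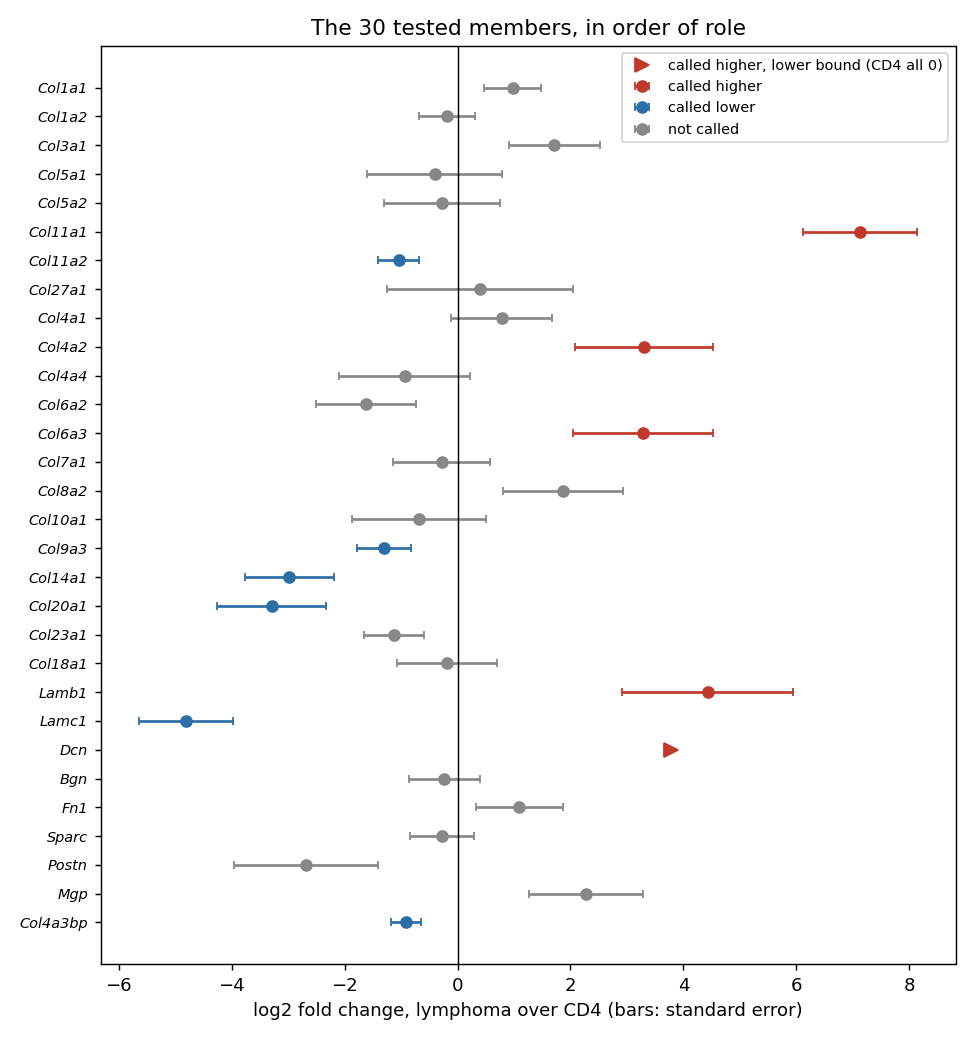
Log2 fold change (lymphoma over CD4, x axis) of the 30 tested members, ordered by role, with bars of 1 standard error. Red marks members called higher, blue called lower and grey not called. The arrowhead is the lower bound for Dcn, which had 0 counts in every CD4 library. Fold changes of Col4a2 and Col6a3 rest on 3 and 2 CD4 counts.

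Summed over all members, the reads came to 227 ± 36.8 CPM (SD, n = 6) in lymphoma, with libraries from 190 to 289 CPM, and to 176 ± 19.9 CPM (SD, n = 3) in CD4, with libraries from 162 to 198 CPM. Without Col4a3bp the sums were 193 ± 37.2 and 113 ± 19.3 CPM. Most of the excess in the group mean sits in Col11a1, with means of 119 and 112 CPM once both genes are left out. Without Col11a1 and Col4a3bp, the lymphomas summed to 156, 211, 89.6, 52.5, 99.2 and 103 CPM (lymphomas 34, 53, 56, 70, 72 and 86) and the CD4 libraries to 99.99, 135 and 102 CPM. The groups then overlapped, with lymphomas 34 and 53 above every CD4 library and lymphomas 56, 70 and 72 below all of them. Col11a1 made up 7.27% to 67.8% of the members' reads (Col4a3bp left out) in single lymphomas and 0.09% to 1.24% in CD4.

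**Figure D2:**
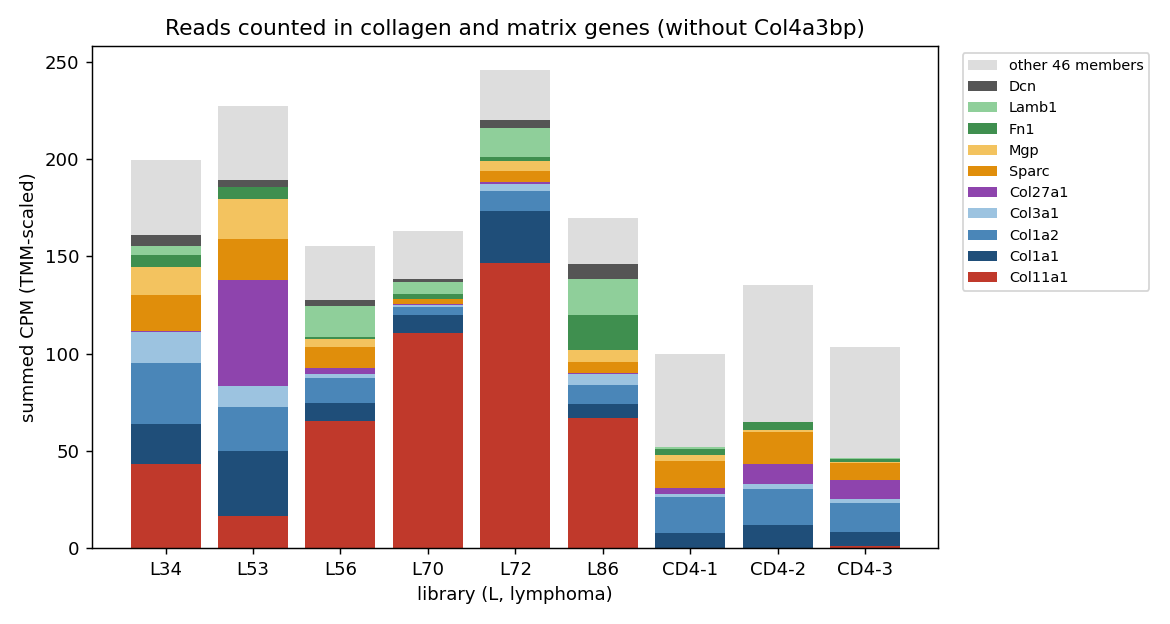
Summed CPM of the members without Col4a3bp (y axis) in each library (x axis, L for lymphoma), stacked by gene. Col11a1 (red, lowest segment) is the main difference in mean height between the groups: it reaches 147 CPM in lymphoma 72 and at most 1.28 CPM in a CD4 library. Without it, lymphomas 34 and 53 still reach 156 and 211 CPM, against at most 135 CPM in CD4.

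The fibrillar collagens, the chains of the large connective tissue fibres, gave the largest sum of any role once Col4a3bp is set aside, with 98.2 to 198 CPM in lymphoma and 40.4 to 66.6 CPM in CD4. Of their 11 genes, 8 were tested, 1 was called higher and 1 lower, beside 24.7% and 21.9% of all tested genes. Both are chains of collagen XI, which sits inside thin fibrils of cartilage and is little known from T cells. Col11a1 (chr3:114030540-114220718, GRCm38) gave 675, 181, 902, 1804, 2243 and 924 reads in the lymphomas (in the order 34, 53, 56, 70, 72, 86), and 1, 1 and 14 reads in CD4 1, 2 and 3. In CPM these are 43.5, 16.5, 65.6, 110, 147 and 66.7 against 0.0954, 0.120 and 1.28. All lymphomas lay above all CD4 libraries, with lymphomas 70 and 72 highest and lymphoma 53 lowest. The log2 fold change of Col11a1 was 7.13 (SE 1.0), and 9.35 without CD4 3, which holds 14 of the 16 CD4 counts.

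Col11a2 (chr17:34039437-34066685), the partner chain, went the other way. It had 105, 101, 86, 113, 119 and 81 counts in the lymphomas and 58, 164 and 206 in CD4, that is 5.85 to 9.22 CPM (median 6.85) against 5.53, 19.7 and 18.9 CPM. The lymphomas lay close together, and CD4 1 was below all of them, so the groups overlapped. The log2 fold change was -1.04 (SE 0.369). This call was lost in 9 of 17 alternatives, among them leaving out CD4 2 (-0.77), CD4 3 (-0.81) or any of lymphomas 34, 56, 70, 72 and 86 (-1.07 to -0.96).

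The sequences upstream of both chains are shown because the pair split between the groups. They are RefSeq sequences of build GRCm38.p6, plus strand, ending at the base before the RefSeq gene start. Capitals mark the GC box GGGCGG (bound by SP1-type factors), the CCAAT box, TATAAA and the E-box CACGTG known from MYC family binding, each searched on both strands, with no overlap between matches in these windows.
Col11a1 chr3:114030290-114030539: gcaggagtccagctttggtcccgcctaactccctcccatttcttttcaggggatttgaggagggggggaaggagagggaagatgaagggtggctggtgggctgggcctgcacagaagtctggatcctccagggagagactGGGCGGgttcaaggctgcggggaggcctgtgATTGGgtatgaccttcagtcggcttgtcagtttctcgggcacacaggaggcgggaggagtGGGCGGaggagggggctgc
Col11a2 chr17:34038888-34039137: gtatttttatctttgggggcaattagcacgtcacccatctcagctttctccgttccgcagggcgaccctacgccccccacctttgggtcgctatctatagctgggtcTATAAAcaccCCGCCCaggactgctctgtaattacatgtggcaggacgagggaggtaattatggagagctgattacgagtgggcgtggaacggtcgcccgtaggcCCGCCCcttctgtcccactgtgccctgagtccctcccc
The Col11a1 stretch holds 2 GC boxes and 1 CCAAT box, and that of Col11a2 2 GC boxes and 1 TATAAA. Neither has CACGTG. Promoter windows of 300 bases, from 250 before the start to 50 after it, were found for 42 of the 57 members, as 46 windows. CACGTG is in 0 of these 46 and in 7.15% of 32851 windows of all genes, GGGCGG in 60.9% against 35.7%, CCAAT in 34.8% against 37.4% and TATAAA in 13.0% against 13.6%. These are matches of letters and say nothing of binding.

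The collagens that fibroblasts make most, types I and III, were not called. Col1a1, a chain of collagen I, had 20.2, 33.4, 9.17, 9.25, 26.6 and 7.22 CPM in lymphomas 34, 53, 56, 70, 72 and 86 and 7.73, 12 and 7.16 CPM in CD4. Lymphomas 34, 53 and 72 were above all CD4 libraries and the others within their range (log2 fold change 0.98, SE 0.507). Col1a2, the partner chain, had 31.3, 22.5, 12.7, 4.23, 10.3 and 10.04 CPM against 18.6, 18.1 and 15.0 CPM (-0.19, SE 0.490). Here lymphomas 34 and 53 were above CD4 and the other lymphomas below it. Col3a1, the chain of collagen III of reticular fibres, had 16.2, 10.8, 1.96, 1.04, 3.73 and 5.41 CPM against 1.34, 2.88 and 1.74 CPM (1.72, SE 0.809). Lymphomas 34, 53, 72 and 86 were above CD4, while lymphoma 70 was below it.

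The other fibrillar collagens were low or rested on 1 library. Col27a1, a fibrillar chain of cartilage, had 0.451, 54.7, 3.06, 0.367, 0.851 and 0.650 CPM in the lymphomas, so lymphoma 53 alone held 599 of its lymphoma counts, and 2.96, 9.96 and 9.82 CPM in CD4. The collagen V chains Col5a1 and Col5a2, which set the width of collagen I fibrils, had 0.0612 to 2.28 and 0.429 to 3.56 CPM in lymphoma, and 0 to 4.10 and 0 to 3.48 CPM in CD4. Col2a1, Col5a3 and Col24a1 had 4, 4 and 7 counts in all.

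Proteoglycans and glycoproteins of connective tissue also differed among lymphomas. Decorin (Dcn, chr10:97479609-97518143), a small proteoglycan that coats collagen fibrils, had 87, 39, 42, 28, 61 and 102 counts in the lymphomas and 0 in each CD4 library. In CPM it stood at 5.61, 3.56, 3.06, 1.71, 3.99 and 7.36, above CD4 in every lymphoma. Set against a floor of 3 counts in each CD4 library, the lymphoma mean was at least 13.7-fold higher. Its call was kept in all 16 alternatives that gave a value. Lum, which encodes the related proteoglycan lumican and is made by the same connective tissue fibroblasts, had 0 counts in all 9 libraries. Biglycan (Bgn), another member of that family, overlapped fully, with 4.77, 3.65, 2.40, 0.857, 1.70 and 0.866 CPM against 2.67, 3.60 and 2.11 CPM.

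None of the tested glycoproteins was called. Sparc, a collagen-binding protein also made by endothelium and platelets, had 18.6, 21.3, 11, 2.57, 5.56 and 5.63 CPM in the lymphomas against 14.0, 16.6 and 8.53 CPM (log2 fold change -0.28, SE 0.572). Mgp, an inhibitor of calcification, had 14.4, 20.5, 3.93, 0.367, 5.10 and 6.35 CPM against 3.43, 1.08 and 0.642 CPM (2.28, SE 1.01). For both genes lymphomas 34 and 53 were the highest libraries and lymphoma 70 the lowest. Fibronectin (Fn1), made by fibroblasts and also by macrophages, stood at 18.0 CPM in lymphoma 86 and at 1.31 to 6.06 CPM in the other lymphomas, against 1.83 to 3.96 CPM in CD4 (1.09, SE 0.769). Periostin (Postn), a protein of activated fibroblasts, had 0 counts in lymphomas 34, 53 and 56, 0.262 to 0.735 CPM in the others and 0.0917 to 2.64 CPM in CD4. Fbn1, the scaffold of microfibrils, did not pass the filter, with 0 to 1.42 CPM in lymphoma and 0 to 0.642 CPM in CD4.

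**Figure D3:**
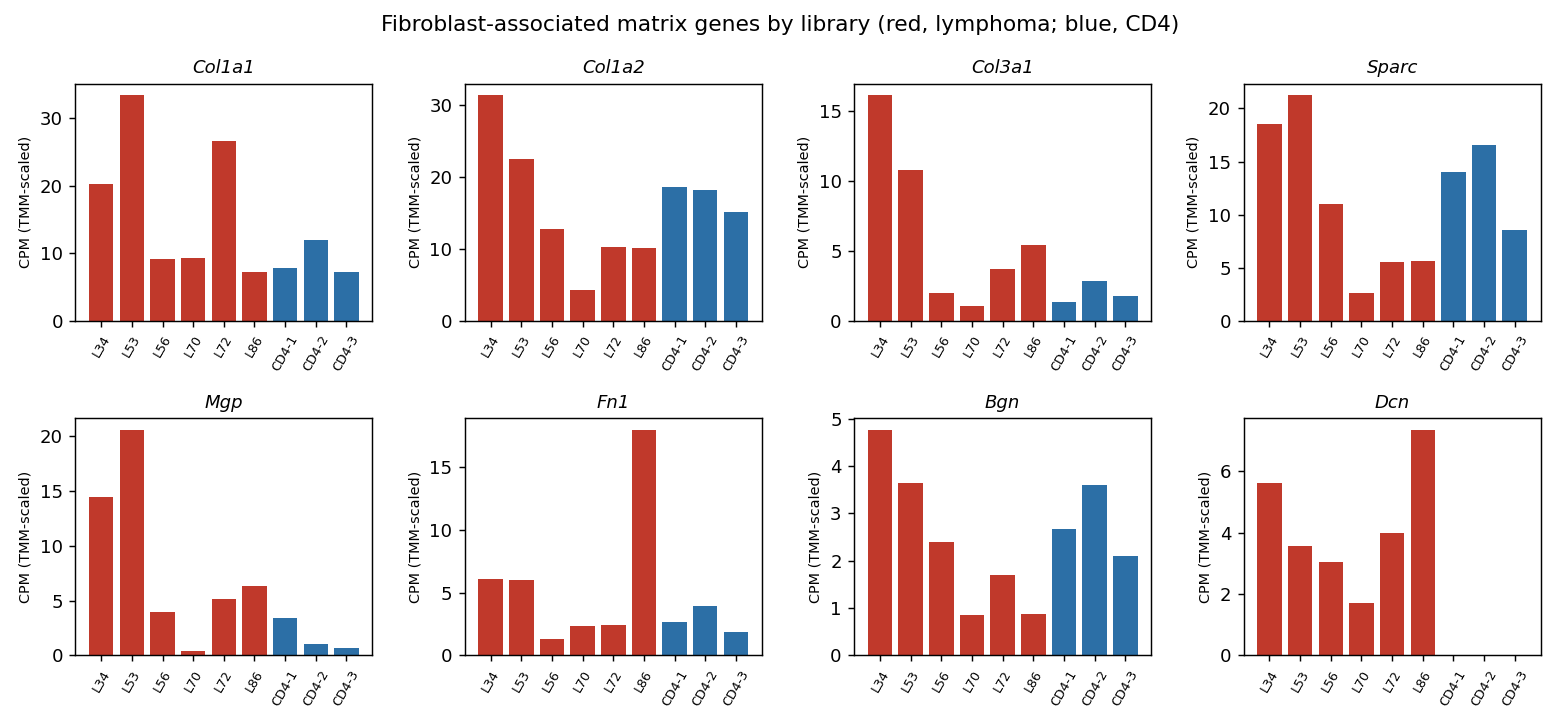
CPM (y axis) of 8 matrix genes known from fibroblasts in each library (x axis, red lymphoma, blue CD4). Lymphomas 34 and 53 have the tallest bars for Col1a2, Col3a1, Sparc and Mgp, lymphoma 86 for Fn1 and Dcn, and Dcn has no bar in CD4.

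Lymphomas therefore differed from each other in which matrix genes they carried. Of the 43 members with at least 10 counts, lymphoma 53 was the highest lymphoma for 14 and lymphoma 34 for 13, and each of the other lymphomas for 3 to 5. Lymphoma 70 alone was the lowest for 12 and lymphoma 53 for 10. Col1a2, Col3a1, Sparc, Mgp, Bgn and Dcn all had their lowest lymphoma value in lymphoma 70, the library with the second highest Col11a1. Other members did not follow this order: Postn was highest among lymphomas in lymphoma 70, the lowest Col1a1 was in lymphoma 86 and the lowest Fn1 in lymphoma 56, and lymphoma 72, with the highest Col11a1, was second for Col1a1. Lymphoma 53, first or second for Col1a1, Col1a2, Col3a1, Sparc, Mgp and Bgn, had the lowest Col11a1.

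Basement membrane genes split within their assemblies. Laminins are trimers of an alpha, a beta and a gamma chain. Lamb1 (chr12:31265234-31329644), a beta chain, gave 73, 0, 220, 103, 225 and 258 reads over the lymphomas in the order above and 13, 0 and 1 in CD4. That is 4.71, 0, 16.0, 6.31, 14.7 and 18.6 CPM against 1.24, 0 and 0.0917 CPM, with 5 lymphomas above CD4 and lymphoma 53 at 0. The log2 fold change was 4.43 (SE 1.52). The call was lost in 8 of 16 alternatives, among them leaving out lymphoma 56 (4.28), 72 (4.29) or 86 (4.21) or CD4 2 (3.92) or 3 (3.95), and the value was 7.39 without CD4 1.

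Lamc1 (chr1:153218922-153332786), the gamma chain shared by most laminins, was the reverse. It had 6, 0, 1, 1, 1 and 5 counts in the lymphomas and 39, 55 and 43 in CD4. In CPM this is at most 0.387 in a lymphoma against 3.72, 6.60 and 3.94, with no overlap and a log2 fold change of -4.81 (SE 0.827). The call was kept in all 16 alternatives that gave a value. Lamc1 passed the expression filter through its reads in CD4, so the direction of its call supports nothing. Nid1, whose product nidogen links laminin to collagen IV, was not tested, with 0 to 0.262 CPM in the lymphomas and 3.05, 0.120 and 4.86 CPM in CD4. Lama2 had 3 counts in all, each in CD4 3. The upstream sequence of Lamb1 is shown as that of the laminin chain that was higher, from RefSeq GRCm38.p6, plus strand, with the same motifs in capitals (2 GC boxes and 1 CCAAT box). It stops before the first annotated exon.
Lamb1 chr12:31265043-31265233: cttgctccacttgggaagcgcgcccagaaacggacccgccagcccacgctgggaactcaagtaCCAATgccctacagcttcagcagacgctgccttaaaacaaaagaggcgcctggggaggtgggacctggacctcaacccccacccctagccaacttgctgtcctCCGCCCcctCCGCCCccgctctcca

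Of the 6 collagen IV chains, 3 were tested. Col4a2 (chr8:11312805-11449287) had 37, 5, 15, 21, 10 and 15 counts in the lymphomas and 0, 3 and 0 in CD4, that is 2.39, 0.457, 1.09, 1.29, 0.654 and 1.08 CPM against 0, 0.360 and 0 CPM. All lymphomas were above CD4, and the ratio of pooled counts per library size was 11.9 (exact 95% counting interval 3.96 to 58.7). Its call was lost in 10 of 16 alternatives, among them leaving out any of lymphomas 34, 56, 70, 72 and 86, CD4 1 or CD4 3, and without CD4 2 the CD4 group is at 0. Col4a1 (chr8:11198423-11312826), whose chain pairs with that of Col4a2, had 4.84 CPM in lymphoma 34, 0.639 to 1.59 CPM in the other lymphomas and 0.477, 0.360 and 2.02 CPM in CD4. It was not called (log2 fold change 0.78, SE 0.892). The genes start 21 bases apart on opposite strands and their exons overlap, and the strand setting of the counting is not given in the sources used here. Col4a4 had 0 to 1.48 CPM in lymphoma and 0 to 3.03 CPM in CD4. Col4a3, Col4a5 and Col4a6 had at most 0.437 CPM in any lymphoma and at most 0.960 CPM in any CD4 library.

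Beaded filament, anchoring fibril and short-chain collagens had at most 4.20 CPM in any lymphoma. Col6a3 (chr1:90765923-90843971), the large chain of collagen VI, had 7, 8, 22, 6, 6 and 11 counts in the lymphomas and 0, 0 and 2 in CD4. All lymphomas, at 0.367 to 1.60 CPM, lay above all CD4 libraries, at 0 to 0.183 CPM. The ratio was 10.4 (exact 95% counting interval 2.76 to 87.9), and the call was lost in 4 of 9 alternatives, including without CD4 1 and without CD4 2, while without CD4 3 the CD4 group is at 0. The smaller chains of the same protein did not share this. Col6a1 had 0.184 to 0.774 CPM in lymphoma and 0.286, 2.16 and 0 CPM in CD4, and Col6a2 had 0 to 0.509 CPM in lymphoma and 0.720 to 1.43 CPM in CD4 (not called, -1.62, SE 0.880). Col6a6 had 47 of its 53 counts in lymphoma 34. Col7a1, the anchoring fibril of skin, had 0.306 to 2.83 CPM against 0.572 to 3.0 CPM. Col8a2, a network collagen of cornea and vessels, had 0.458 to 4.20 CPM against 0 to 0.642 CPM (1.87, SE 1.07), Col8a1 at most 0.365 against 1.65 CPM, and Col10a1, of growth plate cartilage, at most 0.735 against 1.20 CPM.

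The fibril-associated collagens, short interrupted chains that sit on the surface of fibrils, held 3 tested genes, all lower in lymphoma, of 9. Col14a1 and Col20a1 passed the expression filter through their reads in CD4, so this count supports nothing. Col14a1 (chr15:55307750-55520803), made by fibroblasts of skin and tendon, had 9, 22, 3, 9, 10 and 3 counts in the lymphomas and 113, 10 and 50 in CD4. In CPM these are 0.217 to 2.01 against 10.8, 1.20 and 4.59, with lymphoma 53 above CD4 2 and a log2 fold change of -2.98 (SE 0.786). Without CD4 1 it was -2.04 and the call was lost, and without lymphoma 53 it was -3.61. Col20a1 (chr2:180986535-181018363) had 1, 11, 4, 2, 0 and 3 counts in the lymphomas and 33, 28 and 19 in CD4. The groups did not overlap, at 0 to 1.0 CPM against 1.74 to 3.36 CPM, and the log2 fold change was -3.29 (SE 0.966), -4.24 without lymphoma 53 and, with the call lost, -3.12 without CD4 2. Col9a3 (chr2:180597790-180622189), a collagen IX chain of cartilage, had 19, 13, 24, 24, 19 and 24 counts against 48, 31 and 26, that is 1.19 to 1.75 CPM against 2.39 to 4.58 CPM with no overlap (-1.31, SE 0.474). That call was lost in 9 of 17 alternatives, including leaving out any of lymphomas 34, 56, 70, 72 and 86, CD4 1 or CD4 2, and the exons of Col9a3 overlap those of Tcfl5 on the other strand.

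Of the remaining members, only Col4a3bp was called. Among transmembrane collagens, Col23a1 had 1.0 to 3.34 CPM in lymphoma and 3.15 to 8.04 CPM in CD4 (-1.13, SE 0.528), Col17a1 at most 0.387 against 0.840 CPM, and Col25a1 10 of its 11 counts in lymphoma 34. The vessel-associated Col18a1, source of endostatin, had 0.0645 to 1.92 CPM against 0.367 to 1.44 CPM, and Col15a1 0 to 1.30 against 0 to 0.600 CPM. Col12a1 and Col16a1, which also sit on fibrils, had at most 0.612 and 0.458 CPM in lymphoma and at most 0.642 and 0.480 CPM in CD4, and Col6a4 at most 0.387 and 0.360 CPM. Under 10 counts in all were found for 14 members: Col2a1, Col4a5, Col5a3, Col6a5, Col9a1, Col9a2, Col13a1, Col19a1, Col22a1, Col24a1, Col26a1, Col28a1, Lama2 and Lum, with Col9a1 and Lum at 0 everywhere. Col4a3bp (chr13:96542618-96640167), the symbol match, had 576, 153, 482, 622, 659 and 450 counts in the lymphomas and 696, 528 and 638 in CD4. Its 14.0 to 43.1 CPM against 58.5 to 66.4 CPM did not overlap (-0.91, SE 0.272). The call was lost without CD4 1 (-0.85) and without CD4 2 (-0.90).

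**Figure D4:**
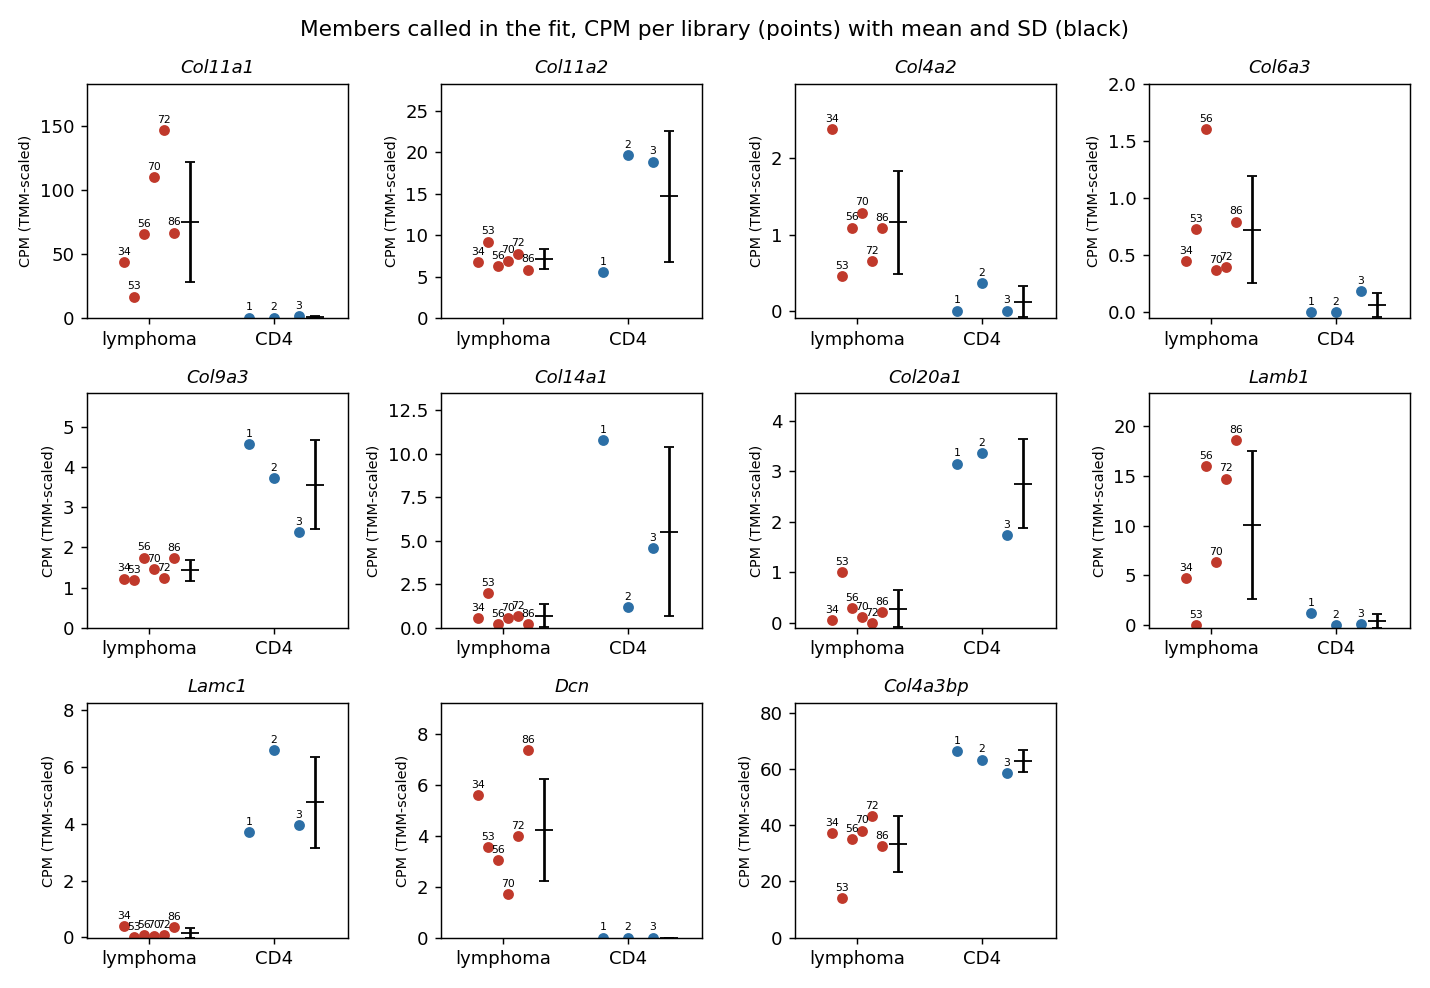
CPM (y axis) of the 11 called members in each library, as points with the library number, red for lymphoma and blue for CD4. The black dash and bar give the mean and SD. The groups do not overlap for Col11a1, Col4a2, Col6a3, Col9a3, Col20a1, Lamc1, Dcn and Col4a3bp, and overlap for Col11a2, Col14a1 and Lamb1.

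The enzymes that fold, trim and crosslink collagen were mixed. Of 30 genes of collagen processing, 23 were tested, 6 were higher and 4 lower by edgeR, beside 24.7% and 21.9% of all tested genes, with a median log2 fold change of 0.52. P4hb, a subunit of the prolyl hydroxylase and a general folding enzyme of all secretory cells, rose by 1.47 (SE 0.241, edgeR adjusted p 0.000409), from 37.1 to 86.8 CPM in CD4 to 152 to 195 CPM in lymphoma. The partner subunits P4ha1 and P4ha2 fell by 0.83 (SE 0.221) and 2.30 (SE 0.774). Adamts3, which trims the ends of procollagen, had 1.57 to 3.18 CPM in the lymphomas and 0 counts in each CD4 library, at least 7.05-fold higher (edgeR adjusted p 0.000411). Its relative Adamts14 had 1 count over all lymphomas and 1.05, 5.04 and 3.58 CPM in CD4, so that pooled CD4 was 265 times higher (exact 95% counting interval 46.4 to 10588). Bmp1 and the crosslinking enzyme Loxl2 were at 0 in CD4 and at least 6.25-fold and 2.52-fold higher, with Loxl2 at 0 in lymphoma 56. Adamts3, Adamts14, Bmp1 and Loxl2 passed the expression filter through the group where each was high, so the direction of their calls supports nothing.

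Of 35 further matrix proteins, 19 were tested, 6 were higher and 2 lower (24.7% and 21.9% of all tested genes), with a median of 1.23. Further laminin chains were among both. Lama5 had 7.23 to 17.5 CPM in lymphoma against 0, 0.120 and 0 CPM (ratio 323, exact 95% counting interval 57.8 to 12755, edgeR adjusted p 1.41e-05), and Lama3 1.19 to 7.0 CPM against 0 in each CD4 library (at least 12.8-fold). Lama5 and Lama3 passed the expression filter through their reads in lymphoma, so the direction of their calls supports nothing. Lamb3 fell by 2.03 (SE 0.367, edgeR adjusted p 0.000806). Fbln1, a protein of elastic fibres and basement membranes, rose by 4.90 (SE 1.03), with 100 CPM in lymphoma 53 and 11.1 to 16.7 CPM in the other lymphomas. Vcan and Agrn, large proteoglycans, rose by 3.32 (SE 0.954) and 1.58 (SE 0.439), and Tgfbi, a collagen-binding protein, fell by 2.29 (SE 0.496). Aspn rose by 2.10 (SE 0.395), with 10.7 to 17.5 CPM in lymphoma against 1.47 to 4.92 CPM in CD4, with no overlap. The list counted 4 lower without CD4 1.

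On the receiving side, 2 of 17 tested matrix receptors were higher and 5 lower (24.7% and 21.9% of all tested genes), with a median of -0.94. Without lymphoma 53, 8 were lower, and without CD4 1 or CD4 3, 1 was higher. Among the called receptors the laminin receptor chain Itga7 had the lowest log2 fold change (-3.80, SE 0.885, edgeR adjusted p 0.00413). Itga7 passed the expression filter through its reads in CD4, so the direction of its call supports nothing. The collagen receptor chain Itga1, not tested, had 1 count over the lymphomas and 4, 10 and 15 in CD4. The hyaluronan receptor Cd44 went from 130 to 181 CPM in CD4 to 34.5 to 70.4 CPM in lymphoma. Sdc1, a heparan sulphate proteoglycan, rose by 3.37 (SE 0.516, edgeR adjusted p 0.000254). Of 9 tested proteases and inhibitors, 1 was higher and 2 lower, beside 24.7% and 21.9% of all tested genes. Timp2 rose by 0.99 (SE 0.226), while Mmp9 and Mmp12 fell by 2.87 (SE 0.487) and 1.49 (SE 0.442). The calls among proteases numbered 2 higher and 1 lower without CD4 1, and 1 lower without CD4 3. In the TGF-beta pathway, which drives collagen genes in fibroblasts, 6 of 12 tested genes were lower (21.9% of all tested genes), with a median of -0.73. Tgfbr3 fell by 4.15 (SE 0.442, edgeR adjusted p 1.84e-05) and the inhibitor Smad7 by 3.70 (SE 0.569).

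The label of a stromal sign was set beside markers of the cells that could carry it. Fibroblast markers summed to 1.35 to 4.13 CPM in the lymphomas and 1.83 to 4.58 CPM in CD4. Of 14, 2 were tested and 0 were called by edgeR, as at an unadjusted p under 0.05, with DESeq2 and with limma voom. Twist2, Meox1, Tcf21 and Scara5 were at 0 in all libraries. The defining receptor Pdgfra had 0.0612 to 0.524 CPM in lymphoma and 0, 0 and 0.367 CPM in CD4. The transcription factors Prrx1 and Osr1 and the surface protein Gas1 had 0 counts in each CD4 library. They had 1 to 7, 0 to 9 and 0 to 9 counts per lymphoma, too few to be tested. Pi16 and Cygb, the 2 tested markers, pointed the other way (log2 fold change -1.21, SE 1.04 and -1.71, SE 1.23). Htra3, not tested, had 1 count over the lymphomas and 8 over CD4. Lymphoid reticular cell markers summed to 4.58 to 13.7 CPM against 4.87 to 6.36 CPM, with the defining chemokines Ccl19 and Ccl21a at 0 everywhere. Cxcl13 was the 1 of 4 tested that was called (ratio 25.0, exact 95% counting interval 8.43 to 122). It was called higher, as were 24.7% of all tested genes. That call was lost without CD4 1 and without CD4 2.

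Pericyte and smooth muscle markers summed to 3.61 to 7.94 CPM in lymphoma and 7.16 to 13.9 CPM in CD4. Notch3 and Kcnj8 were the 2 of 4 tested that were lower, beside 21.9% of all tested genes. Notch3 passed the expression filter through its reads in CD4, and Kcnj8 largely did, so this count supports nothing. Kcnj8 (-3.24, SE 1.24) had an edgeR adjusted p of 0.0485, and the 2 calls became 0 without CD4 2 and 1 without any other library except lymphoma 53. Endothelial markers summed to 87.2 to 105 CPM against 201 to 213 CPM, but most of that is Pecam1, which T cells and platelets also express. Cldn5 and Robo4 were at 0 in all 9 libraries, and Cdh5 was at 0 in the lymphomas and had 0, 5 and 38 counts in CD4. Kdr fell by 5.11 (SE 1.05) and Egfl7 rose by 6.60 (SE 0.511). Kdr passed the expression filter through its reads in CD4 and Egfl7 through those in lymphoma, so the direction of these calls supports nothing. Of 7 tested endothelial genes, 1 was higher and 2 lower, beside 24.7% and 21.9% of all tested genes. Among 13 thymic epithelial markers, 5 were tested and 2 were higher, beside 24.7% of all tested genes. Epcam rose by 3.85 (SE 0.655) and Prss16 by 3.54 (SE 1.05). The list summed to 21.9 to 71.2 CPM against 10.8 to 22.6 CPM, with Epcam alone at 7.0 to 50.7 against 1.05 to 1.93 CPM. Untested Psmb11, Krt14, Cldn4 and Aire had lower mean CPM in lymphoma, while Krt5, Krt8, Foxn1 and Trp63 had 0 counts in CD4. The epithelial regulator Foxn1 had 0 to 0.258 CPM in lymphoma and 0 in CD4, and 1 gene of the list stayed called without CD4 2 or with limma voom. Adipoq, an adipocyte gene, had 0 counts in CD4 and was at least 4.0-fold higher, with adipocyte sums of 3.86 to 10.05 CPM against 3.58 to 4.39 CPM, and 0 counts of Adipoq in lymphoma 53. Among 3 tested adipocyte genes only Adipoq was called, where 24.7% of all tested genes were called higher, and its call was lost with limma voom. Adipoq passed the expression filter through its reads in lymphoma, so the direction of its call supports nothing. Without CD4 1, 1 adipocyte gene was lower.

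The control libraries held transcripts of other cells. The counts of lower genes that follow stand beside 21.9% of all tested genes called lower. B cell markers summed to 600 to 723 CPM in CD4 and 2.95 to 7.08 CPM in lymphoma, with 6 of 6 lower in lymphoma, led by Ms4a1 (-7.75, SE 0.585). Plasmacytoid dendritic cell markers summed to 465 to 526 CPM against 48.9 to 117 CPM, with 5 of 6 lower, Siglech most (-8.56, SE 0.460). Of these sums, Tcf4 alone gave 248 to 303 CPM in CD4 and 31.0 to 71.1 CPM in lymphoma. Siglech gave 60.7 to 69.1 CPM in CD4 and at most 0.367 CPM in lymphoma. Siglech, Klk1, Cd79a and Blk passed the expression filter through their reads in CD4, so the direction of their calls supports nothing. Macrophage markers summed to 259 to 360 CPM in CD4 and to 127, 198, 179, 48.9, 61.2 and 216 CPM in lymphomas 34, 53, 56, 70, 72 and 86, with 4 of 10 lower, Csf1r most (-2.72, SE 0.392). Platelet markers summed to 8.81 to 15.5 CPM against 1.51 to 8.37 CPM, with Ppbp (-3.49, SE 1.09) and Itga2b lower among 5 tested. Without lymphoma 53, CD4 1 or CD4 2, 1 of these calls was lost. Itga2b passed the expression filter through its reads in CD4, and Ppbp largely did, so this count supports nothing. The T cell list summed to 2890 to 3166 CPM in CD4 and 1739 to 2668 CPM in lymphoma, with Cd28, Cd2 and Cd4 lower (Cd4 -2.76, SE 0.717), and 5 lower without lymphoma 53. The part of these cells in the levels of the matrix genes was not tested.

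**Figure D5:**
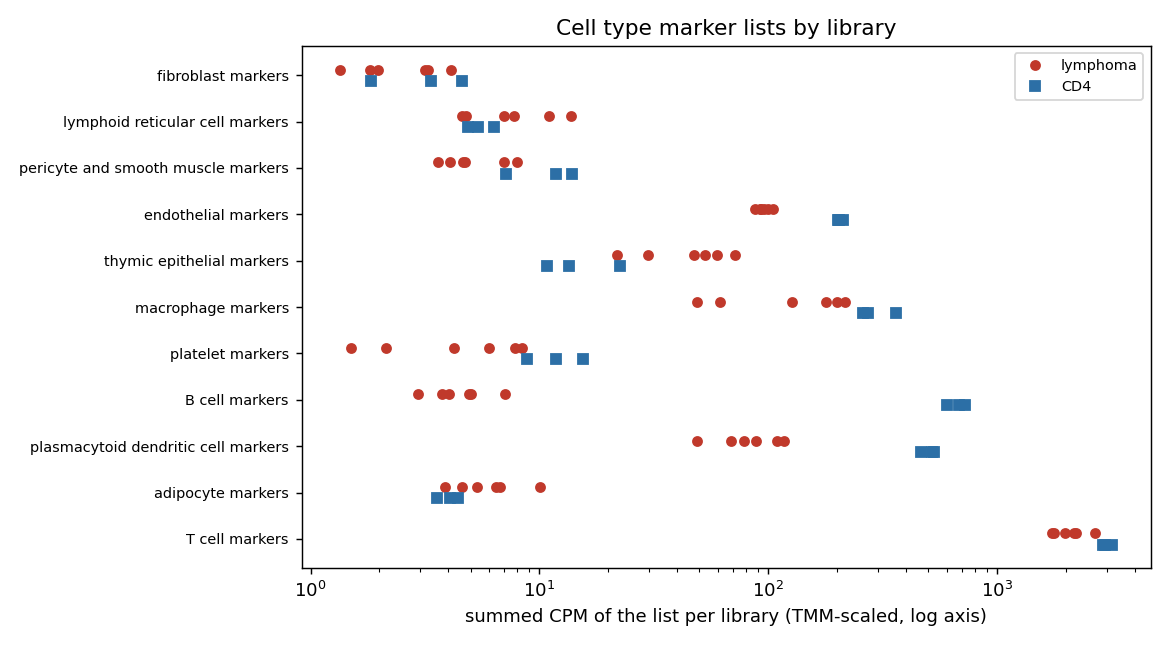
Summed CPM of each cell type marker list (x axis, log scale) per library, red circles for the 6 lymphomas and blue squares for the 3 CD4 libraries. Fibroblast markers lie between 1.35 and 4.58 CPM in all libraries, while B cell markers lie at 600 CPM or more in CD4 and at most 7.08 CPM in lymphoma.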

How the data were processed

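RNA from 6 lymphoma and 3 CD4 samples was sequenced at transcript 3′ ends. The authors deposited a table of raw read counts per Ensembl gene, with symbols, per the file headers. The submitters' processing notes name FastQC, HISAT2, SAMtools and HTSeq and the builds mm10 and GRCm38, while versions, annotation and strand setting are not given in the sources used here. The 5 summary rows of reads in no gene were left out (27.8% to 49.1% of all reads were in genes), and 0 columns matched no sample. Of rows that share a symbol, that with most counts was used.

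The test was edgeR's (version 4.0.16, R 4.3.3): filterByExpr with a minimum count of 10, TMM, glmQLFit (robust) and glmQLFTest over all 9 libraries without covariates, with Benjamini-Hochberg adjustment over 15401 genes at a threshold of 0.05. Fold changes are lymphoma over CD4. Genes with few reads in a group passed the filter through the other group, so the direction of their calls supports nothing. SE is the absolute log2 fold change over the square root of F. The members and the gene lists were chosen with earlier results of these data known. Named members are those with at least 10 counts in all, and from each list the largest rise and fall among called genes, other called genes added after their values were seen. Positions and exon overlaps come from GENCODE M21 (GRCm38), which matched 57 of 57 members (exons of 18 overlap another gene, whose reads may be mixed in), and upstream sequences from RefSeq GRCm38.p6. The fit was also run on simulated data in which only well-counted genes were changed, so this does not cover genes with few counts. Alternatives were other scalings and filters, DESeq2 1.42.0, limma 3.58.1 voom, stricter thresholds, averaged lymphomas and each library left out in turn.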

Additional observations from a re-analysis of the deposited data

Results flagged for a closer look

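Among the 6 lymphomas, 61 values were examined for a library whose gap to its nearest neighbour was large against the whole range. This held for 14. The 3.05 expected at 1 in 20 assumes independent, normally spread values. Low counts and sums that share genes do not meet this, so no excess is read from it. Lymphoma 53 stood apart for 6 genes. It was high for Col27a1 (54.7 CPM, others 0.367 to 3.06), Col8a2 (4.20 CPM, others 0.458 to 1.44), Col14a1 (2.01 CPM, others 0.217 to 0.654), Col20a1 (1.0 CPM, others 0 to 0.291) and Col8a1 (0.365 CPM, others 0 to 0.122). It was low for Col4a3bp (14.0 CPM, others 32.5 to 43.1).

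Lymphoma 34 was high for 5 collagen genes. These were Col4a1 (4.84 CPM, others 0.639 to 1.59), Col6a6 (3.03 CPM, others 0 to 0.218), Col6a1 (0.774 CPM, others 0.184 to 0.365), Col25a1 (0.645 CPM, others 0 to 0.0728) and Col6a4 (0.387 CPM, others 0 to 0.0913). Lymphoma 86 was high for Fn1 (18.0 CPM, others 1.31 to 6.06), lymphoma 56 for Col6a3 (1.60 CPM, others 0.367 to 0.794) and lymphoma 72 for Nid1 (0.262 CPM, which is 4 counts, others 0 to 0.0645). Among the values below 1 CPM the high library had 4 to 12 counts.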

How the results depend on the processing

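The 5 members called higher became 3 with upper quartile scaling, 2 without a filter on low counts, 0 with at least 10 counts in every library (a filter that removes genes absent from CD4), 3 with lymphomas 34, 70 and 72 averaged and 2 at an adjusted p under 0.01. Leaving out 1 library gave 2 to 5. The 6 called lower became 2 at an adjusted p under 0.01 and 3 to 7 with 1 library left out. The mean sum over members fell from 227 to 152 CPM in lymphoma without Col11a1 and to 119 CPM without Col11a1 and Col4a3bp. In CD4 it fell from 176 to 113 CPM without Col4a3bp and to 112 CPM without both, the removal of both having been chosen after seeing the data. The 11 named fold changes were recomputed 172 times: 128 kept direction and call, 44 lost the call and 0 reversed, and the cause was not tested. Calls of Col11a1, Lamc1 and Dcn were kept in each of the 16 alternatives that gave them a value. Each of these genes passed the expression filter through the group where it was high. Of 608 list counts, 554 stayed within 1.5 times. Genes called in all stayed within 1.5 times of 7174, with 7757 by DESeq2 and 7217 by limma voom. Members with few counts are limited by depth: a CD4 library at 0 allows up to 0.360 CPM. No paired analysis was possible because the groups share no replicate numbers.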
